A study of Homo sapiens with 20 samples.

Results

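This account covers CTCF itself and 7 genes that encode cohesin or the proteins that load and release it: RAD21, SMC3, NIPBL, STAG1, WAPL, PDS5A and PDS5B. They are 8 of the 20155 protein-coding genes with an annotated start site. They were chosen by name, and every CTCF peak and histone region within 10 kb of a fixed span around each gene was taken. The spans, on hg19, were chr16:67596000-67673000 for CTCF, chr8:117858000-117888000 for RAD21, chr10:112327000-112365000 for SMC3 and chr5:36876000-37066000 for NIPBL. For STAG1 the span was chr3:136055000-136472000, for WAPL chr10:88195000-88282000, for PDS5A chr4:39824000-39980000 and for PDS5B chr13:33160000-33353000. The data were 20 chromatin immunoprecipitation (ChIP-seq) libraries in 10 groups of 2. LNCaP, a prostate cancer cell line, was profiled for CTCF, for H3K4me3, which marks active promoters, and for H3K27ac, found at active enhancers as well as promoters. IMR90, a line of normal lung fibroblasts, was profiled for CTCF alone, once with a standard protocol and once with a low-cell protocol. In every group the cells received 20 nM of a pool of siRNAs, either non-targeting (control siRNA) or against CTCF (CTCF siRNA), and were collected at 144 h, with a split and a reverse transfection after 72 h. The labels give this schedule for LNCaP and for the low-cell IMR90 libraries, those of the standard IMR90 libraries repeat the LNCaP text, and the study's methods give a different reagent, Lipofectamine RNAiMAX, for IMR90. A transient knockdown of this kind lowers CTCF in a population of cells and does not remove the gene.

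CTCF is a zinc-finger protein that binds DNA at a long motif and halts cohesin there. Cohesin is a ring made of SMC1A, SMC3 and RAD21, with STAG1 or STAG2 bound to it. NIPBL loads the ring onto chromatin and drives loop extrusion, WAPL takes it off again, and PDS5A and PDS5B sit on the ring, help WAPL and bind CTCF-halted complexes. All 8 genes are used by nearly every cell, so their promoters are active in most tissues. The comparison asked here is whether the loci that encode this machinery kept their CTCF peaks and their promoter marks when CTCF was knocked down.

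The siRNAs against CTCF are shown because they define the treatment, as the strand given in the labels, 5′ to 3′ and in lower case throughout.
siRNA 1: gaacagcccauaaacauag
siRNA 2: gaagaugccugccacuuac
siRNA 3: gaugaagacugaaguaaug
siRNA 4: ggagaaagaagaagagua
siRNAs 1, 2 and 3 each matched the MANE Select transcript of CTCF at 1 position and no other gene in the GENCODE transcripts. All 3 positions lie in the coding part of exon 3 of 12, at chr16:67645048-67645066, chr16:67644838-67644856 and chr16:67644951-67644969 (hg19, plus strand). siRNA 4, listed with 18 bases, had 0 exact matches in CTCF or any other gene. With 1 base added inside it, it matched once, in the coding part of exon 10 at chr16:67663364-67663382.

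CTCF RNA and protein cannot be read from these libraries, so the number of CTCF peaks is the nearest check of the knockdown. LNCaP lists held 38017 and 46364 peaks in the control siRNA libraries and 3724 and 7730 in the CTCF siRNA libraries. IMR90 lists went from 35719 and 36890 to 19180 and 18539, and the low-cell lists from 20284 and 19153 to 5111 and 2021. The study's own checks of CTCF RNA and protein are not used here, and the depth of knockdown in the 2 cell lines was not compared. The lists hold no read depth. By the depths the study states, whose values are not used here, LNCaP CTCF siRNA replicate 1 was sequenced several times less deeply than the LNCaP controls and replicate 2 about as deeply, and the IMR90 CTCF siRNA libraries were deeper than their controls. The part of depth in the peak counts was not tested, and a peak missing from a list fell below the caller's threshold, which does not measure how much binding was left. LNCaP carried both histone marks in all 4 libraries at the promoter of KLK3, a gene of prostate luminal cells. Of 6 fibroblast genes, 5 had no H3K27ac region in any library and 2 had no H3K4me3 region in any library, while COL1A1 carried both marks in all 4. IMR90 has no histone library and its identity could not be checked. One histone library stood apart, H3K27ac CTCF siRNA replicate 2, whose regions were wider (median 1700 bp) than those of the other 3 (medians of 1300 to 1350 bp).

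The 8 loci lost nearly all of their CTCF peaks in LNCaP and in the low-cell IMR90 libraries, and most of them in the standard IMR90 libraries. In LNCaP, the 2 control siRNA libraries held 20 and 22 peaks in the 8 windows together, and each CTCF siRNA library held 1, at the PDS5B promoter in replicate 1 and in a STAG1 intron in replicate 2. In IMR90 the counts were 22 and 24 with control siRNA and 7 and 10 with CTCF siRNA. In the low-cell libraries they were 13 and 13 against 0 and 0. No CTCF siRNA library reached the lowest control library of its experiment. Summed over the experiments, the mean difference between control and CTCF siRNA was 47.5 peaks (exact permutation test within experiments, two-sided, p = 0.00926, the smallest p this design allows). Within 1 experiment, 2 libraries against 2 cannot go below p = 0.333, which each reached (exact permutation test). The loci lost peaks along with the lists as wholes. When all lists of an experiment were shortened to the same number of their strongest peaks, the sum was 2.5 peaks and the call was lost (exact permutation p = 0.333). IMR90 then had 10 and 10 control peaks against 7 and 10. The controls held only 2 and 0 peaks in LNCaP and 1 and 0 in the low-cell libraries, too few to show a difference there. As a percentage of the full list, the windows held 0.0526% and 0.0475% of LNCaP control peaks against 0.0269% and 0.0129% after CTCF siRNA. In IMR90 they held 0.0616% and 0.0651% of control peaks against 0.0365% and 0.0539%. In the low-cell libraries the shares were 0.0641% and 0.0679% against 0% and 0%. The share was thus lower after CTCF siRNA in each experiment, which rests on few peaks and was not tested.

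**Figure D1:**
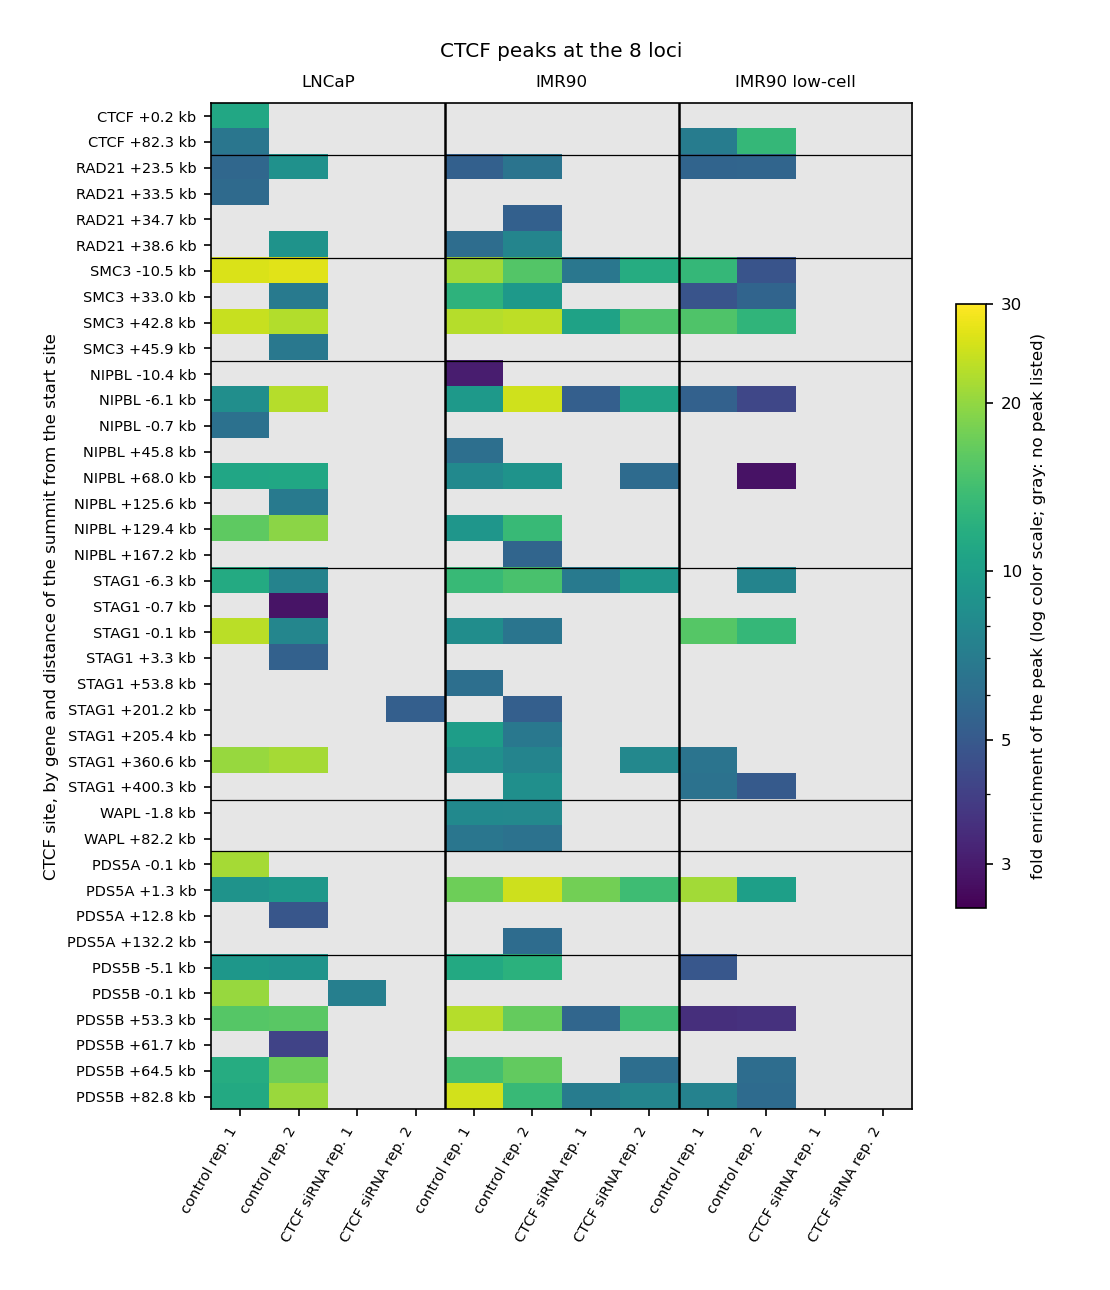
Each row is 1 of the 39 CTCF sites at the 8 loci, named by gene and by the distance of its summit from the start site in kb (negative upstream), and each column is 1 of the 12 CTCF libraries. Color gives the fold enrichment of the peak on a log scale and gray marks no listed peak; the LNCaP CTCF siRNA columns hold 1 peak each and the low-cell CTCF siRNA columns none.

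Merged over the 12 CTCF libraries, the windows held 39 CTCF sites. Of these, 16 were in 1 library only and 21 were present in both control libraries of at least 1 experiment. The LNCaP control pair shared 14 sites, the IMR90 pair 19 and the low-cell pair 11. All 14 LNCaP sites were also IMR90 sites, and 8 sites had a peak in all 6 control libraries. Of the 39 summits, 19 lay in an intron of the gene itself and 3 in one of its exons or UTRs. Another 8 lay in another annotated gene, such as UTP23 beside RAD21, and 9 outside any annotated gene. Counted across all of these, 6 lay within 1 kb of the gene's start site. Of the 21 sites of a control pair, only the STAG1 promoter site was that near.

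The CTCF gene had the fewest peaks at its own locus, together with WAPL. Its window held 2 sites, and none was shared by the control pair in LNCaP or IMR90. A peak 0.2 kb downstream of the CTCF start site (chr16:67596475-67596812, first intron) was listed in LNCaP control replicate 1 alone, with a fold enrichment of 11.1 over local background. The other, 82.3 kb downstream and past the end of the gene, had fold enrichments of 7.12 and 13.1 in the low-cell controls and 6.65 in LNCaP control replicate 1. WAPL, the release factor, had 2 sites, both in IMR90 controls alone. The one 1.8 kb upstream, in an exon of the divergent transcript WAPL-DT, had fold enrichments of 8.13 and 8.08, and the one 82.2 kb downstream, in an intron, had 6.60 and 6.35. No site of either gene was in a CTCF siRNA library.

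Of the ring genes, SMC3 carried the strongest sites and RAD21 the weakest. SMC3, an ATPase arm of the ring, had a site on either side of the gene in all 6 control libraries. The upstream one, 10.5 kb before the start site (chr10:112316544-112317187), had the highest LNCaP value of all 14 sites, with fold enrichments of 26.0 and 26.8, and 21.3 and 15.4 in IMR90. The downstream one, 42.8 kb past the start site (chr10:112369946-112370642), had 24.3 and 22.5 in LNCaP and 22.7 and 23.4 in IMR90. Neither was listed in LNCaP after CTCF siRNA, and both remained in IMR90. RAD21, the kleisin that closes the ring, had 1 site in all 6 control libraries, 23.5 kb downstream of its start site and inside the gene. Its fold enrichments were 5.71 and 8.82 in LNCaP, 5.37 and 6.49 in IMR90 and 5.55 and 5.65 in the low-cell controls, and it was in none of the 6 CTCF siRNA libraries. STAG1, a subunit that ties the ring to CTCF, had the most sites (9) in the longest window. Its promoter site, 0.1 kb upstream of the start site (chr3:136471026-136471498), had fold enrichments of 23.2 and 7.86 in LNCaP, 8.43 and 6.55 in IMR90 and 15.7 and 13.1 in the low-cell controls, and no peak in any CTCF siRNA library. Among the sites within 1 kb of a start site of the 8 genes, it alone had a peak in every control library. The strongest STAG1 site by its LNCaP mean lay in an intron 360.6 kb downstream (chr3:136110460-136110953). Its fold enrichments were 20.4 and 21.5 in LNCaP, 8.70 and 7.64 in IMR90 and 6.47 in low-cell control replicate 1 alone. After CTCF siRNA it was listed in IMR90 replicate 2 alone, at 7.97.

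The loader gene and PDS5B carried control sites both inside the gene and upstream, and PDS5A inside the gene alone. NIPBL, the loader, had 3 LNCaP control sites. The strongest of them by its LNCaP mean, 129.4 kb downstream of the start site in an intron, had fold enrichments of 16.2 and 19.5 in LNCaP and 9.19 and 13.4 in IMR90, and was in no CTCF siRNA library. PDS5B had 4 control sites in LNCaP and the same number in IMR90, the highest count in LNCaP. PDS5A had 1, 1.3 kb downstream of its start site in an annotated UTR (chr4:39977886-39978753). It too had a peak in all 6 control libraries. Its values were modest in LNCaP, at 8.99 and 9.39, and among the strongest of the loci in IMR90, at 17.3 and 24.8.

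Peaks at the start sites of CTCF, NIPBL, PDS5A and PDS5B rested on LNCaP replicate 1. The peaks 0.1 kb upstream of PDS5A and of PDS5B had fold enrichments of 21.5 and 20.5 in LNCaP control replicate 1, the one 0.7 kb upstream of NIPBL had 6.32, and none of them, nor the CTCF promoter peak, was listed in LNCaP control replicate 2 or in IMR90. The PDS5B peak was listed once more, at 7.29, in LNCaP CTCF siRNA replicate 1. Replicate 1 of the LNCaP controls held more peaks within 1 kb of start sites over all protein-coding genes too, 7.98% of its list against 4.51% in replicate 2. In the LNCaP CTCF siRNA libraries the shares were 4.65% and 3.29%, and in the other 8 libraries 4.53% to 7.69%. These promoter peaks are therefore given as values of single libraries.

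The sequence under a site is shown for the sites kept in IMR90. Shown for comparison are the STAG1 promoter site, the NIPBL site strongest by its LNCaP mean and the peak at the CTCF start site. The STAG1 promoter site and this NIPBL site had no peak in any CTCF siRNA library. In the IMR90 controls this NIPBL site had fold enrichments of 9.19 and 13.4. The kept NIPBL site was stronger there by its mean, at 17.2. Within 100 bp of each summit the best match to the CTCF consensus motif, 14 bases on either strand with up to 2 mismatches, was taken from the hg19 reference. It is printed in the motif's own direction, with the match in capitals and 8 flanking bases on each side.
SMC3, 10.5 kb upstream (chr10:112316954-112316967, plus strand, kept in IMR90): gatgtgcaCCACAAGGGGGCAGacgtctta
SMC3, 42.8 kb downstream (chr10:112370224-112370237, plus strand, kept in IMR90): tcccagagCCACTAGAGGGGGCccttgaca
PDS5B, 53.3 kb downstream (chr13:33213838-33213851, minus strand, kept in IMR90): tcttgcaaCCAGCAGATGGTGCcctccata
PDS5B, 82.8 kb downstream (chr13:33243370-33243383, minus strand, kept in IMR90): ataaatggCCACCAGGAGGAGCtcacctag
NIPBL, 6.1 kb upstream (chr5:36870734-36870747, minus strand, kept in IMR90): attactaaCCAGCAGAGGGAGCcaagtcaa
STAG1, 6.3 kb upstream (chr3:136477514-136477527, plus strand, kept in IMR90): gtgtgctgCCAATTGGTGGCAGtaatatgc
STAG1, 0.1 kb upstream (chr3:136471247-136471260, minus strand, lost): caccgcggCCAGCAGAGGGCGGtccggacc
NIPBL, 129.4 kb downstream (chr5:37006231-37006244, minus strand, lost): tcatttcaCCACTAGATGACACcctactga
CTCF, 0.2 kb downstream (chr16:67596665-67596678, plus strand, in LNCaP control replicate 1 alone): gcgggccgCCTCTAGGTGTCACgatggggc
The lost STAG1 promoter site matched with 0 mismatches. The kept STAG1 site, the kept PDS5B site at 82.8 kb and the CTCF promoter site had 2 mismatches, and the other sites shown had 1. The seventh kept site, at PDS5A, had no match within 2 mismatches. Of the 21 sites of a control pair, 16 held a match (76.2%), against 74.0% of the 33413 LNCaP, 71.6% of the 30523 IMR90 and 81.1% of the 16863 low-cell control sites. Of the 16 sites in 1 library, 6 held one. The lost sites shown are only some of the 12 IMR90 control sites not kept. By count, 6 of the 7 kept sites held a match (85.7%) and 8 of the 12 not kept (66.7%). Over the genome, a match was found at 83.3% of the 15693 kept IMR90 sites and 88.3% of the 3095 kept LNCaP sites. Both shares are above those of all control sites. A match says that these letters are in the window, and no match says nothing about binding.

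Of the control sites, 7 at 5 genes were kept in IMR90 after CTCF siRNA, and none in LNCaP or in the low-cell libraries. A site counted as kept when a peak overlapped it in both CTCF siRNA libraries. In LNCaP, 0 of 14 were kept, which allows a share of up to 21.4%, against 9.26% of all LNCaP control sites and 7.17% of those in the same range of control fold enrichment. In the low-cell libraries, 0 of 11 were kept, which allows up to 27.3%, against 10.9% of all sites and 8.46% in the same range. In IMR90, 7 of 19 were kept, or 36.8% (Wilson 95% interval 19.1% to 59.0%, counting error only), against 51.4% of all IMR90 control sites and 44.1% in the same range. The intervals of the loci hold the genome-wide share in IMR90, and the limits lie above it in LNCaP and the low-cell libraries, so no difference from other CTCF sites was detectable with so few sites. The standard and low-cell IMR90 libraries come from the same cell line and differed in protocol, and 6 of the 7 kept sites had a peak in both low-cell controls, the other one in 1 of them, and none had one after CTCF siRNA there.

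The kept sites had higher fold enrichment in the IMR90 controls than most of the others. They were SMC3 at 10.5 kb upstream and 42.8 kb downstream, PDS5B at 53.3 and 82.8 kb downstream, NIPBL at 6.1 kb upstream, STAG1 at 6.3 kb upstream and PDS5A at 1.3 kb downstream. Their mean control fold enrichment ran from 14 to 23 (median 19.4), and that of the 12 sites not kept from 5.93 to 15.4 (median 8.26), so the sets overlapped between 14 and 15.4. The 4 sites upstream or past the end of SMC3, NIPBL and STAG1 lie in the flanks, and with no flank 3 of 12 sites were kept. CTCF, RAD21 and WAPL kept no site. RAD21 and WAPL had 2 IMR90 control sites each, all below 9, and CTCF had none.

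**Figure D2:**
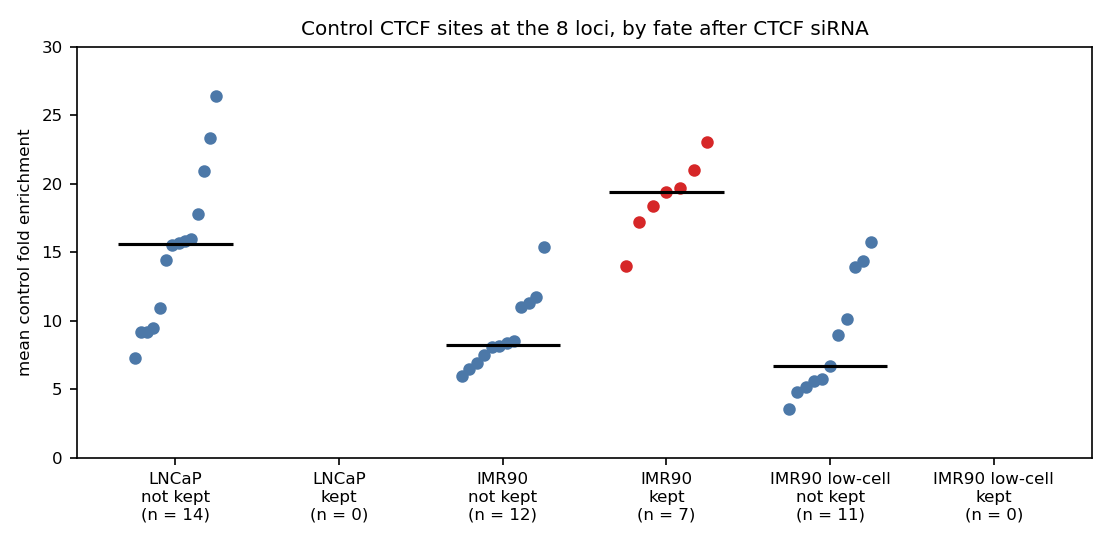
Points are the control CTCF sites of the 8 loci in each experiment, placed by their mean fold enrichment in the 2 control libraries (linear axis), in blue where not kept and in red where kept after CTCF siRNA, with lines at the medians. In IMR90 the 7 kept sites sit between 14 and 23 and the 12 others between 5.93 and 15.4; the LNCaP sites reach 26.4 and none was kept.

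Kept peaks had lower mean fold enrichment after CTCF siRNA, by an amount that varied between sites. PDS5A, 1.3 kb downstream of its start site, had the highest values after CTCF siRNA, with fold enrichments of 17.7 and 13.8 against 17.3 and 24.8 in the IMR90 controls, and here the groups overlapped. SMC3 at 42.8 kb had 10.5 and 15.0 against 22.7 and 23.4, and SMC3 at 10.5 kb upstream had 6.69 and 11.7 against 21.3 and 15.4. PDS5B at 53.3 kb had 5.70 and 13.8 against 22.7 and 16.7. At these 3 sites both CTCF siRNA values were below both control values. The same held for PDS5B at 82.8 kb, with 7.12 and 7.72 against 25.4 and 13.4, and for STAG1 at 6.3 kb upstream, with 6.95 and 9.22 against 13.3 and 14.7. NIPBL at 6.1 kb upstream had 5.31 and 10.6 against 9.48 and 25, and its groups overlapped. In all, both CTCF siRNA values were below both control values at 5 of 7 kept sites, against 57.3% of the 15693 sites kept in IMR90. Mean fold enrichment after CTCF siRNA was 38.3% to 74.9% of that in controls at the 7 sites (median 50.1%), and the median over all 15693 was 72.7%. Fold enrichment is a ratio within a library and was not scaled between libraries, and no test of single sites was run.

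H3K4me3 lay at the promoters of all 8 genes in all 4 LNCaP libraries, over the start site itself in 7 of them, and no change in covered length passed the test. The length covered by regions within 5 kb of the start site ran from 3050 to 4950 bp over the 8 genes and 4 libraries. At CTCF it was 4500 and 4450 bp in control cells and 3900 and 4700 bp after CTCF siRNA. In 3 of these libraries the mark was split around the CTCF start site, with an upstream region ending 29 to 79 bp before it, and in CTCF siRNA replicate 2 a single region of 4700 bp ran across it. The log2 difference, centred on the median promoter of each library, was -0.10 ± 0.07 for CTCF (SE, 2 libraries a group, limma with Benjamini-Hochberg adjustment over 14420 promoters, adjusted p = 0.813), which is within the spread of the replicates. At NIPBL, with the longest domain of the set, the values were 4850 and 4950 bp against 4850 and 4850 bp. At RAD21 they were 3550 and 3550 bp against 3650 and 3500 bp, and at SMC3 3100 and 3300 bp against 3050 and 3500 bp. These ring and loader genes overlapped between the groups or met at the same value. STAG1 (4050 and 4200 bp against 4200 and 4250 bp) met at the same value. WAPL (3600 and 3800 bp against 3750 and 4000 bp) and PDS5B (4000 and 4150 bp against 3750 and 4150 bp) overlapped.

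PDS5A was the only member whose H3K4me3 lengths neither overlapped nor met between the groups. It had 3350 and 3250 bp in control cells and 4000 and 3750 bp after CTCF siRNA, a log2 difference of 0.18 ± 0.11 (SE, limma adjusted p = 0.813). Without overlap, 1 of 8 members was longer after CTCF siRNA and 0 shorter, against 15.7% and 5.96% of the 14420 promoters. The test called 0 of the 14420 promoters longer (0%) and 0 shorter (0%) at an adjusted p under 0.05, with 994 at an unadjusted p under 0.05 and none of the 8 genes among them. Over the members, adjusted p ran from 0.813 to 0.990 and log2 differences from -0.10 to 0.18, with a median of -0.02. The region lists hold no read counts, so a change in the height of the mark inside a region would not be seen.

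**Figure D3:**
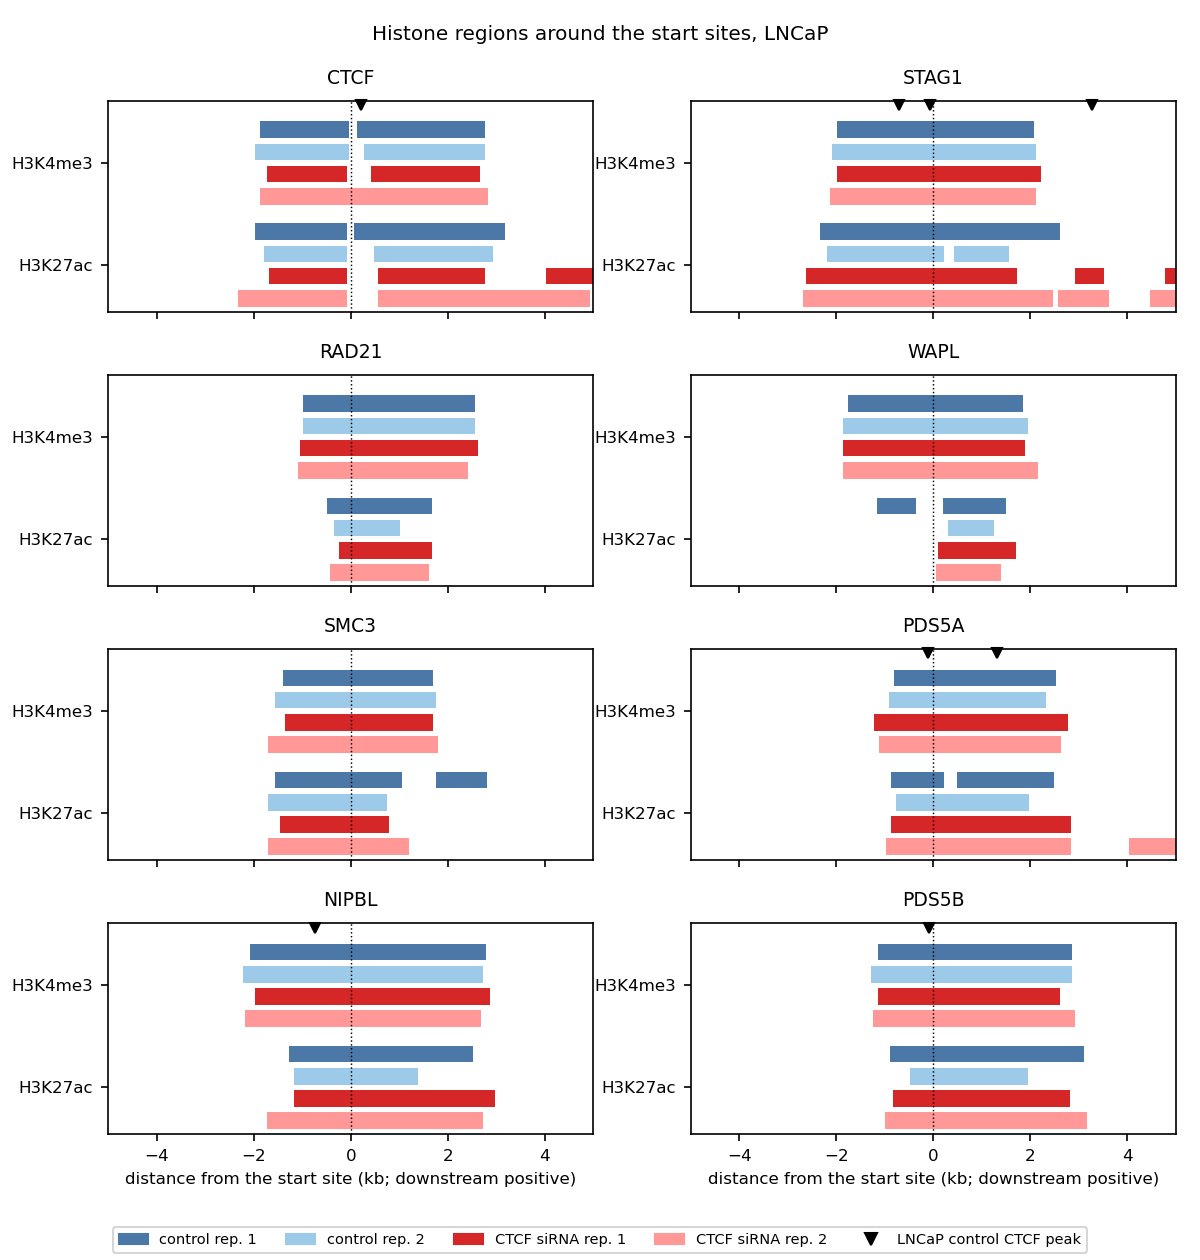
For each gene, bars show the H3K4me3 and H3K27ac regions of the 4 LNCaP libraries within 5 kb of the start site (dotted line), with distance in kb and downstream to the right, and triangles mark CTCF peaks listed in at least 1 LNCaP control library. All 8 genes carry H3K4me3 in every library, from 3050 to 4950 bp, and at CTCF the mark is split at the start site in 3 of the 4.

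H3K27ac lay at the same 8 promoters in every library, and its covered length varied more between replicates than H3K4me3. Over the 8 genes it ran from 950 to 6731 bp, and control replicates could lie far apart, as at PDS5B with 4000 and 2450 bp (3650 and 4150 bp after CTCF siRNA). WAPL had the shortest domain, 2100 and 950 bp with control siRNA and 1600 and 1350 bp with CTCF siRNA, and in no library did it cover the start site. The region nearest the WAPL start site began 49 to 299 bp inside the gene, and control replicate 1 alone also had a region upstream. RAD21 had 2150 and 1350 bp against 1900 and 2050 bp, and CTCF had 5000 and 4150 bp against 4779 and 6600 bp. In these 3 genes the groups overlapped. At CTCF the H3K27ac regions lay on the sides of the start site without covering it in all 4 libraries. The upstream region ended 79 bp before the start site in each. The downstream region began 72 bp after it in control replicate 1, 472 bp in control replicate 2 and 572 bp in both CTCF siRNA libraries. SMC3 had the largest centred difference, with 3650 and 2450 bp against 2250 and 2900 bp and a log2 difference of -0.55 ± 0.19 (SE, limma adjusted p = 0.364, unadjusted p = 0.0333). Its uncentred lengths overlapped, and control replicate 1 alone listed a second region there downstream of the first.

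NIPBL, STAG1 and PDS5A had longer H3K27ac in both CTCF siRNA libraries than in both controls. NIPBL had 3800 and 2550 bp against 4150 and 4450 bp. STAG1 had 4950 and 3550 bp against 5181 and 6731 bp, and PDS5A had 3100 and 2750 bp against 3700 and 4770 bp. Such a pattern was common, since 3 of 8 members were longer and 0 shorter without overlap, against 50.6% and 2.35% of the 13514 promoters tested. After centring, the log2 differences of these 3 genes were 0.13, 0.16 and 0.18, none called. Within 2 kb of the start site in place of 5 kb, STAG1 was at -0.16 and PDS5A at -0.11, and without control replicate 2 NIPBL was at -0.05. No promoter was called in either direction (0% longer and 0% shorter of 13514, limma, adjusted p under 0.05), with 1598 at an unadjusted p under 0.05. Over the 8 members adjusted p ran from 0.364 to 0.975, and the median log2 difference was -0.03. Before centring, the median promoter was longer by 0.28 on the log2 scale after CTCF siRNA for H3K27ac and by 0.03 for H3K4me3. Centring changed the sign at CTCF, RAD21, WAPL and PDS5B for H3K27ac and at RAD21, SMC3 and STAG1 for H3K4me3, none of them called. Leaving out a control library moved the count of H3K27ac promoters called from 0 to 1036 (without control replicate 1) or 567 (without control replicate 2), with no member among them.

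**Figure D4:**
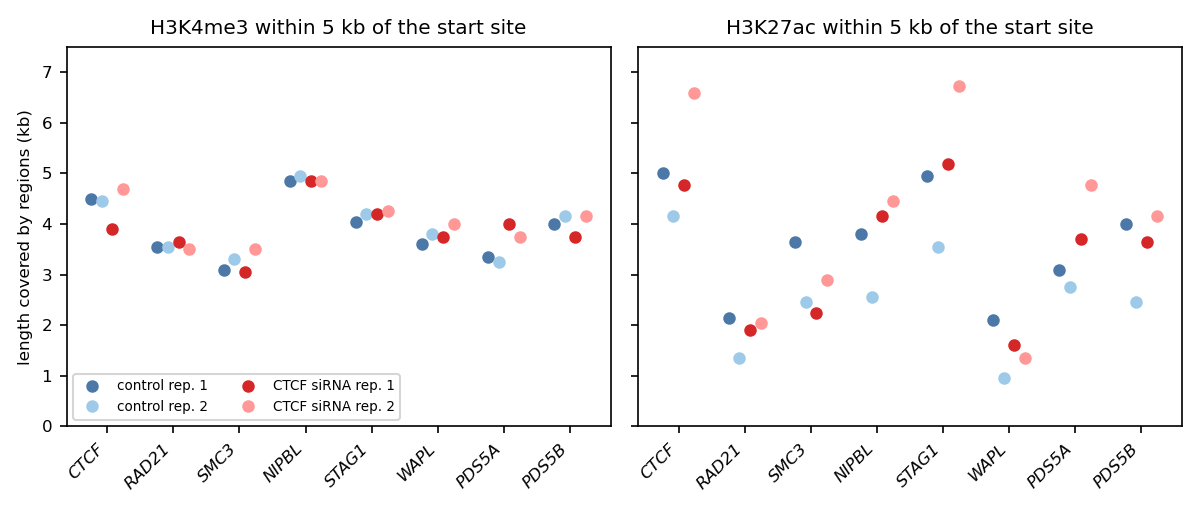
Points are the length in kb covered by H3K4me3 (left) and H3K27ac (right) within 5 kb of the start site of each gene, 1 point for each LNCaP library, in blues for control and reds for CTCF siRNA. H3K4me3 values sit close together within each gene, while H3K27ac values spread more between replicates and STAG1, NIPBL and PDS5A have both red points above both blue points.

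No other gene of the pathway passed the same test. The list held 15 genes, with the remaining ring subunits (SMC1A, STAG2), the partner of the loader (MAU2), the acetyltransferases and the deacetylase of SMC3 (ESCO1, ESCO2, HDAC8), the mitotic protector and cleavage proteins (CDCA5, SGO1, ESPL1, PTTG1) and the germline forms (STAG3, REC8, RAD21L1, SMC1B) with the CTCF paralog CTCFL. In each direction, 0 genes passed limma at an adjusted p under 0.05, of 12 tested for H3K4me3 and 11 for H3K27ac, with 1 and 2 at an unadjusted p under 0.05. Median log2 differences were -0.04 and -0.06. RAD21L1, a meiotic kleisin, had the largest H3K4me3 difference, with 1100 and 1050 bp against 1950 and 2150 bp (0.83 ± 0.13, SE, limma adjusted p = 0.347). REC8, another meiotic kleisin, had no H3K27ac region in control cells and 650 and 1000 bp after CTCF siRNA (limma adjusted p = 0.265). CDCA5, the other gene at an unadjusted p under 0.05 for H3K27ac, went the other way. It had 2700 and 2489 bp against 2150 and 2550 bp (-0.47 ± 0.16, SE, limma adjusted p = 0.373). Over all promoters, 994 of 14420 for H3K4me3 and 1598 of 13514 for H3K27ac were under that unadjusted threshold. SMC1B and CTCFL had no region of either mark within 5 kb of the start site in any library. The 3 genes whose covered lengths over the 8 histone libraries were most like those of CTCF were TPD52L2, CAD and RAB11A, with root mean square differences of 0.0653, 0.0707 and 0.0720 on the log2 scale among 20155 genes.

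Over the whole gene windows, H3K27ac covered more of 5 loci after CTCF siRNA, and STAG1 the most by ratio. H3K27ac regions covered 4.32% and 2.39% of the STAG1 window in the control libraries and 8.20% and 14.1% in the CTCF siRNA libraries, or 18900 and 10450 bp against 35850 and 61450 bp. PDS5A had 15.0% and 8.10% against 21.9% and 29.0%, and CTCF had 11.6% and 8.66% against 18.8% and 26.3%. At these 3 loci both CTCF siRNA libraries lay above both controls. WAPL (5.14% and 1.73% against 5.19% and 7.62%) and NIPBL (3.64% and 2.02% against 4.41% and 4.67%) were also without overlap, by a smaller margin. RAD21, SMC3 and PDS5B overlapped. A difference in this direction was common among genes, and the 5 of 8 members stand beside 60.3% of the 17183 gene windows with H3K27ac. With all 4 lists shortened to the same number of regions it was 4 of 8 beside 52.6%, NIPBL being the one that no longer separated. The CTCF siRNA lists were longer, at 94628 and 99157 regions against 87146 and 70099, and replicate 2 had wider regions, and their part in these values was not tested.

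The STAG1 difference was large beside that of other genes. On the log2 scale it was 1.72, above 95.5% of the 17183 windows (median 0.49), and 8 of the 465 other windows at least as long as that of STAG1 had a value as high. With lists of equal length it was 1.27, above 94.7% of the windows (median 0.35). Without CTCF siRNA replicate 2, the library with the wide regions, it was 1.28, and without any other single library 1.36 to 2.21. This measure was chosen after the data were seen and carries no test. STAG1 was singled out as the highest of the 8 members in these same values, so its rank among all genes is a description only.

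Part of the added STAG1 coverage lay in regions absent from both controls. For this, H3K27ac regions of the 4 libraries were merged, and those found in 2 or more were counted. Of the 74 such regions at the 8 loci, 18 were in both CTCF siRNA libraries and neither control (24.3%), against 13.2% of all 83272 regions, and 0 were in both controls and neither CTCF siRNA library, against 1.85%. These counts depend on single libraries, since a region in the 1 library left was then enough. Without control replicate 2 they were 20 and 8 of 129 regions, without control replicate 1 35 and 2 of 125, without CTCF siRNA replicate 1 54 and 0 of 119 and without CTCF siRNA replicate 2 36 and 0 of 103. STAG1 held 11 of the 18, out of 20 regions (55.0%). The other 7 genes held 7 of 54 (13.0%), close to the share of all regions. At PDS5A, PDS5B and CTCF there were 2 each and at NIPBL 1, while RAD21, SMC3 and WAPL had none. The 11 STAG1 regions covered 12100 bp in CTCF siRNA replicate 1 and 16050 bp in replicate 2, of the 35850 and 61450 bp in the window. They were 1000 to 2250 bp wide, with 10 in introns and 1 over an exon, and were spread from 5.3 to 385.7 kb downstream of the start site. The nearest to the promoter was chr3:136465101-136466750 and the widest chr3:136313401-136315650. None of the 18 overlapped a CTCF site of any library. The same count was not made over all H3K27ac regions, so this absence is a description only. The STAG1 regions lay 5.4 to 156.8 kb from the nearest LNCaP control site. By score most ranked below the middle of their lists: at the median STAG1 region, 31.9% (replicate 1) and 39.9% (replicate 2) of the regions in the list had the same or a higher score. What the score measures is not given in the sources used here, but lower scores went with wider regions and with more overlap between replicates. In the 8 histone libraries, the lower-scoring 50% had median widths of 2000 to 2450 bp with 88.6% to 99.8% of regions in the other replicate, and the rest 850 to 1200 bp with 30.8% to 79.0%. In the 50% of regions that scored lowest in each library, 6 regions of CTCF siRNA alone remained at the 8 loci, out of 37.

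The 2 CTCF regions among the 18 lay inside the gene. One, chr16:67605951-67607450, was centred 10.3 kb downstream of the start site over an annotated exon and was 700 and 1300 bp wide in the 2 CTCF siRNA libraries. The other, chr16:67665551-67667400, was in an intron 70.0 kb downstream and 1400 and 1850 bp wide. The PDS5A regions were chr4:39826601-39828350 and chr4:39937951-39939100, the PDS5B regions chr13:33269951-33271000 and chr13:33302151-33303350, and the NIPBL region chr5:36940101-36941100. All 5 lay inside the gene they were assigned to.

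**Figure D5:**
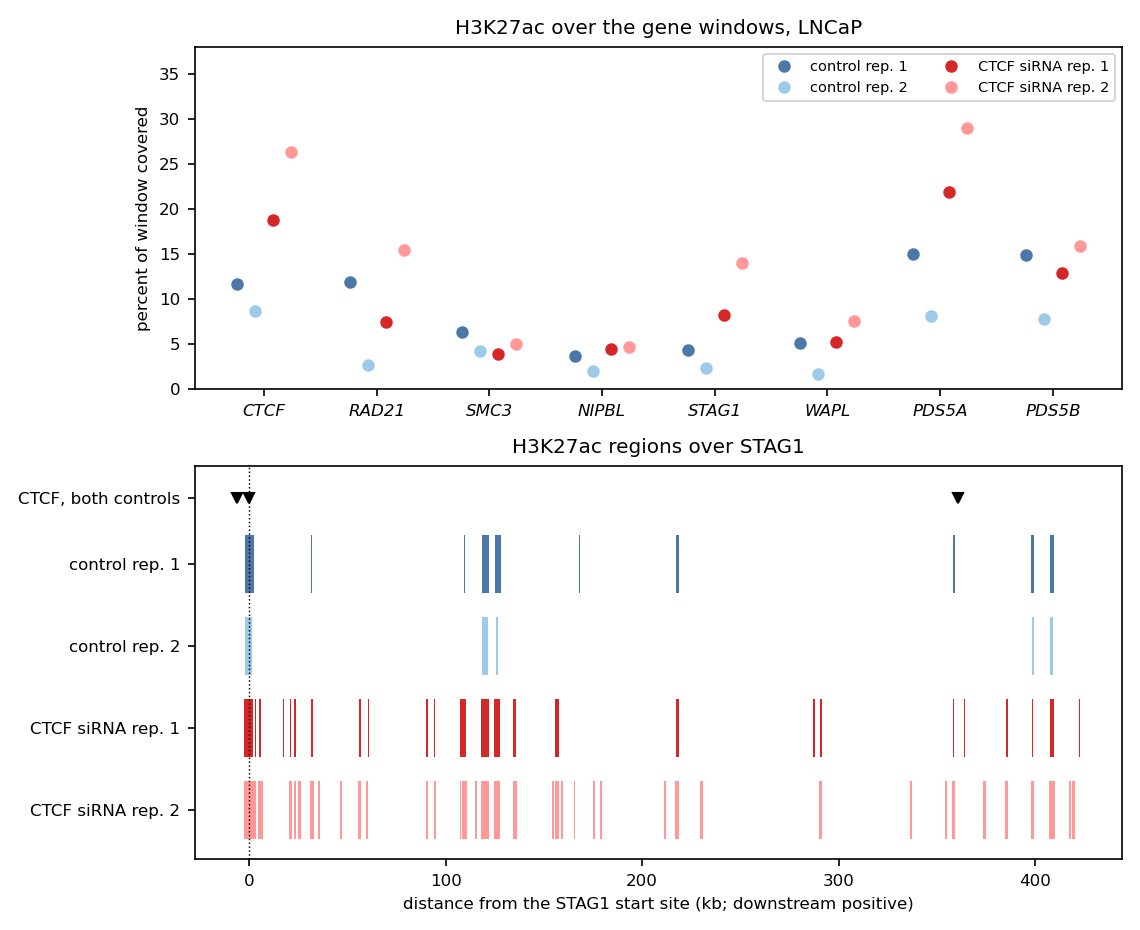
Top, percent of each gene window covered by H3K27ac regions in the 4 LNCaP libraries, 1 point a library; bottom, the H3K27ac regions of each library along STAG1 by distance from its start site in kb, with triangles at CTCF sites present in both LNCaP controls. STAG1 coverage was 4.32% and 2.39% with control siRNA and 8.20% and 14.1% with CTCF siRNA, and the CTCF siRNA rows show regions along the gene body that the control rows lack.

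H3K4me3 regions of 1 treatment were few. Of 24 H3K4me3 regions present in at least 2 libraries at the 8 loci, 15 were in all 4 libraries, 2 were in both controls and neither CTCF siRNA library (8.33%, against 2.55% of all 45684 regions) and 0 were in both CTCF siRNA libraries alone, against 6.44%. One lay in an intron of CTCF, 15.5 kb downstream of the start site (chr16:67611551-67612300), with 700 and 600 bp in the control libraries. The other lay in an intron of STAG1, 218.1 kb downstream (chr3:136252401-136253800), with 650 and 1400 bp. Their ranks were low in at least 1 library, since 28.9% and 26.7% of the regions in the control lists had the same score as the CTCF region or a higher one, and 1.70% and 71.9% the same score as the STAG1 region or a higher one. The direction rested on single libraries. Without control replicate 2, where a region in the 1 library left was enough, there were 3 of control alone and 3 of CTCF siRNA alone, and without CTCF siRNA replicate 1 there were 2 and 4. Without control replicate 1 there were 3 and 1, and without CTCF siRNA replicate 2 there were 3 and 0. In the 50% of regions that scored lowest in each library, 0 regions of control alone and 1 of CTCF siRNA alone were counted.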

How the data were processed

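ChIP-seq lists of 20 libraries were used, 2 for each of 10 groups taken from the sample titles. Reads were aligned by the authors to hg19, using Bowtie, or BWA after adapter trimming for the low-cell libraries. Duplicates were removed, and the authors called each library separately, with MACS2 for CTCF and PeakRanger for histone marks. The deposited CTCF lists give each peak's fold enrichment, a ratio to local background, and its p-value and q-value as −log10, with a largest q-value of 0.0499. The deposited histone lists give a score whose meaning is not given in the sources used here. It was used for ranking only, lower scores first and wider regions first among equals. An input library for peak calling is not given in the sources used here, and the read depths the study states are not used here.

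Only the autosomes, X and Y were used, and 1 shared bp counted as an overlap. Gene models were GENCODE release 44 on hg19, with MANE Select start sites for the 8 genes. Covered length, log2(bp + 100) and centred on each library's median, was tested with limma 3.58.1 (R 4.3.3) over promoters with a region in at least 2 of 4 libraries. Peak counts were tested by exact permutation. The computations were tested on simulated data. Python 3.11.15, numpy 2.4.6, pandas 2.3.3, scipy 1.17.1, pysam 0.24.0 and matplotlib 3.10.9 were used. All 8 genes, the CTCF sites kept, nearest a start site or strongest in LNCaP at each gene, and the regions over a start site or of 1 treatment are named. The genes and lists were chosen with earlier results of these data known. Replicates are biological duplicates per the study's methods, and no 2 lists were identical. The alternatives were a q-value of at most 0.001, no flank, lists of equal length, an overlap of 50% of the shorter region, a peak in either library, 2 kb in place of 5 kb, a pseudocount of 500 bp, no filter, no centring, the 50% lowest scores, the replicate block and leaving out each replicate. Some of the luminal marker genes are not reported here.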

Additional observations from a re-analysis of the deposited data

How the results depend on the processing

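The CTCF peak count kept its direction and its call under a q-value of at most 0.001, without the flanks, with the replicate block (exact permutation p = 0.03125 over 64 arrangements) and without each library in turn (46.0 to 49.0 peaks). With lists of equal length it was 2.5 peaks and not called (exact permutation p = 0.333), with few control peaks left in LNCaP and the low-cell libraries. In LNCaP and the low-cell libraries 0 sites were kept under every alternative, although lists of equal length leave 0 control sites there, and in IMR90 3 were kept without flanks and 6 to 10 otherwise. H3K4me3 called 0 promoters under every alternative. H3K27ac called 2 with a pseudocount of 500 bp, 375 with no filter and 0 to 1036 without 1 library (a lone library is assumed to vary like the others), and the cause was not tested. H3K4me3 and H3K27ac regions of 1 treatment numbered 1 and 6 among the 50% with the lowest scores, and 3 to 6 and 28 to 54 without 1 library, where 1 library decides for its group. H3K27ac window coverage, compared as an addition after the data were seen, was higher without overlap at 4 members with lists of equal length and at 5 to 7 without 1 library. No member's promoter was called under any alternative (limma adjusted p 0.152 to 1). The signs of 24 of 144 uncalled member values changed. The replicate block changed no call. The labels give a number only, and same-numbered libraries had correlated deviations for H3K4me3 (r = 0.28 over promoters) and little for H3K27ac (r = 0.04). Depth is not in the lists, and its part in absent peaks was not tested.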
